A study of Mus musculus with 2 samples.

Results

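The small nucleolar RNA (snoRNA) host genes examined here were 10 genes, *Snhg1*, *Snhg3*, *Snhg4*, *Snhg5*, *Snhg6*, *Snhg7*, *Snhg8*, *Snhg11*, *Snhg12* and *Gas5*, taken by symbol from a table of 23257 known genes. All 10 were found there, and 8 of them were also found among 8714 rows of a table of long non-coding RNAs (lncRNAs), in which *Snhg8* and *Snhg11* had no row. The samples were 2 RNA-Seq libraries, NSC replicates 1 and 2, of a single condition: neural stem cells (NSCs) from the cerebral cortex of CD-1 mouse embryos, bought from a supplier, that were grown as a monolayer in medium with growth factors, 20 ng/ml of EGF and 20 ng/ml of FGF. The labels name no engineered allele, the cells were not differentiated, and RNA was poly(A) selected. The study calls the NSC replicates of its comparison with oligodendrocyte precursors biological, but the labels do not say whether the libraries came from separate cultures, so the spread between them may be partly or wholly technical. With a single condition no test between groups was possible, and the values below are levels and counts.

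Host genes of this kind are transcribed by RNA polymerase II and spliced, and it is the introns that carry the snoRNAs. After splicing the intron is debranched and trimmed down to the snoRNA, which a set of core proteins protects. Box C/D snoRNAs guide the 2′-O-methylation of ribosomal and small nuclear RNA, and box H/ACA snoRNAs guide the conversion of uridine to pseudouridine. The exons of many such hosts have no long reading frame. Their spliced RNA is often translated over a short frame and removed by nonsense-mediated decay, so that the level of the spliced host need not follow that of its snoRNAs. Many host genes, ribosomal protein genes among them, start with a C followed by a run of pyrimidines, the 5′ terminal oligopyrimidine (TOP) tract that couples translation to growth signals.

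Annotation of the GRCm38 assembly (GENCODE M21 and RefSeq) places 33 genes of the snoRNA type inside the 10 host genes on the host strand. GENCODE gives that type also to 2 of them that carry microRNA names, *Mir1949* in *Snhg4* and *Mir5117* in *Gas5*, and both were kept. *Gas5*, first cloned as a transcript that accumulates in growth-arrested mouse cells, holds 9, and *Snhg1*, the host of *Snord22*, holds 8. *Snhg12* holds 4, *Snhg3*, *Snhg4*, *Snhg5*, *Snhg7* and *Snhg11* hold 2 each, and *Snhg6* and *Snhg8* hold 1 each. For 31 of the 33 the snoRNA lay wholly inside an intron of at least 1 GENCODE transcript, and for the 2 in *Snhg7* this could not be read, since the GENCODE gene set has no *Snhg7* transcript. The snoRNA genes were 60 to 205 bases long. The C box was searched as TGATGA starting in the first 20 bases, the D box as CTGA starting in the last 20, and the H/ACA end as ACA starting in the last 8, each on the snoRNA strand. Both C and D letters were found in 17 of the 33 (51.5%), against 20.6% of the 1507 snoRNA transcripts of GENCODE. The latest C letters, those of *Gm24453* in *Snhg1*, started at base 17, so a window a few bases shorter would miss that gene. The ACA end was found in 11 (33.3%), against 46.8% of those transcripts. Neither match says that a box is functional, and a lack of one says only that these letters are not in that window. Hosts with more than 1 matched gene kept largely to 1 class, while *Snhg4*, *Snhg6* and *Snhg8*, with 1 matched gene each, could not show a mix. C and D letters were found in 7 of the 9 genes of *Gas5*, 6 of the 8 of *Snhg1*, both genes of *Snhg5* and the gene of *Snhg6*, and *Gas5* also held 1 ACA end, in *Mir5117*. The ACA end was found in both genes of *Snhg3*, *Snhg7* and *Snhg11* and in the gene of *Snhg8*. *Snhg12* had 1 gene with C and D letters and 2 with the ACA end. Neither was found in 2 genes each of *Gas5* and *Snhg1*, 1 of *Snhg12* (*Snora44*) and 1 of *Snhg4* (*Mir1949*), whose other gene, *Snora74a*, had the ACA end.

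**Figure D1:**
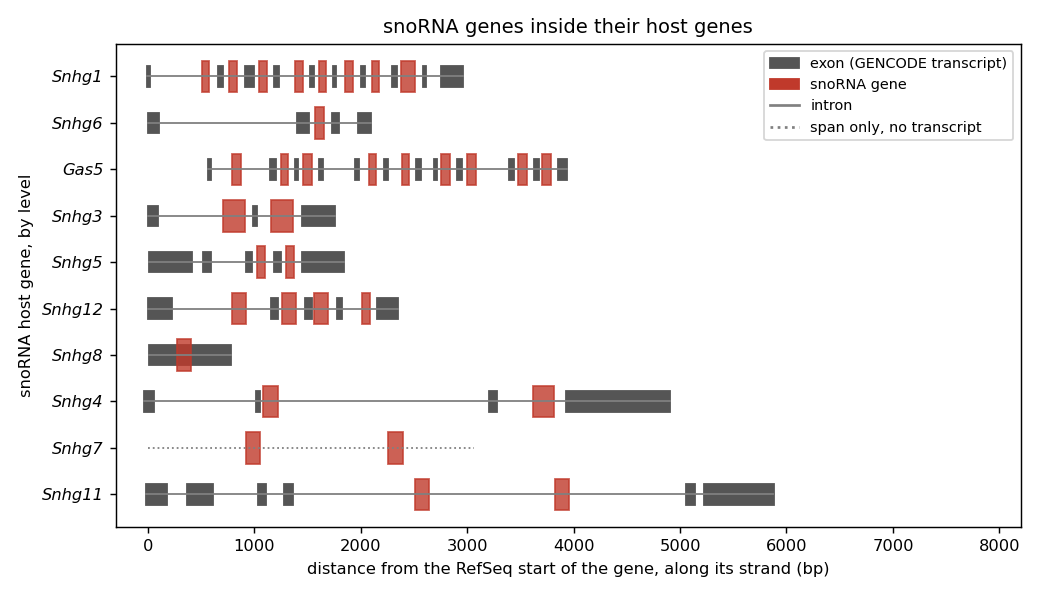
Maps of the 10 host genes along their own strand, with the distance from the RefSeq start in bp on the x axis and the genes ordered by level on the y axis, exons in grey and snoRNA genes in red. Exons are those of the GENCODE transcript matched to RefSeq or, for Gas5 and Snhg11, of the GENCODE transcript with the most exons, and Snhg7 is drawn as a span only. In Snhg8 the snoRNA lies within the exon drawn, and Gas5 and Snhg1 alternate short exons with 9 and 8 snoRNA genes.

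The sequences of 6 of these snoRNA genes are shown, because they have rows of their own in the known-gene table, which bear on how the host genes compare between tables. *Snord22* lies in *Snhg1* (chr19:8725866-8725991, plus strand), *Snora43* in *Snhg7* (chr2:26637847-26637985, minus strand) and *Snora44* in *Snhg12* (chr4:132309941-132310069, plus strand). The other 3, *Snora16a* in *Snhg12* (chr4:132309464-132309600, plus strand), *Snord47* in *Gas5* (chr1:161038082-161038158, plus strand) and *Snord87* in *Snhg6* (chr1:9942463-9942549, minus strand), are shown beside them: *Snora16a* has a value that is not part of its host's in the lncRNA table, and *Snord47* and *Snord87* are at the lowest value, where nothing can be read about this. Sequences are those of the GENCODE M21 transcripts on GRCm38, 5′ to 3′, and capitals mark C and D box letters in Snord genes and the ACA end in Snora genes.
Snord22: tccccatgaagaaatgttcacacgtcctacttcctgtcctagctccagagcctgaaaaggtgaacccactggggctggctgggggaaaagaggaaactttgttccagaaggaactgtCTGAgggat
Snora43: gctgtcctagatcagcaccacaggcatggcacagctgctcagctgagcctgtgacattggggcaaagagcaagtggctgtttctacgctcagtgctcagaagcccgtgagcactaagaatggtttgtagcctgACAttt
Snora44: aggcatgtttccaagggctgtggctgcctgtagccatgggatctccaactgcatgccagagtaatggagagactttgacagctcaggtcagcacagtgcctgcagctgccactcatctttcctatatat
Snora16a: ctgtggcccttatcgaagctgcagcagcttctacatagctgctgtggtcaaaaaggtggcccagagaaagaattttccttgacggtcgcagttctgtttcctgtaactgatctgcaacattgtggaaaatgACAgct
Snord47: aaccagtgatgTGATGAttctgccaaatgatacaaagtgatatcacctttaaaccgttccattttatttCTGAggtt
Snord87: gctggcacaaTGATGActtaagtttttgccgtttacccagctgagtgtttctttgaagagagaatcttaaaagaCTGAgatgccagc

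RefSeq start windows (build GRCm38.p6) were searched for 8 of the 10 host genes, with 2 starts for *Gas5*, which gives 9 windows. No window of *Snhg4* or *Snhg6* was searched, so the counts of host windows do not cover these genes. The 9 windows are shown because the hosts shared letters there that their selection by symbol did not use. From each, 40 bases before the start and 30 from the start on are given, ordered by the level of the gene, and capitals mark a TATA beginning 40 to 20 bases before the start, the first transcribed base and, where that base is C, the unbroken run of C and T from it.
Snhg1, chr19:8723447-8723516, plus strand: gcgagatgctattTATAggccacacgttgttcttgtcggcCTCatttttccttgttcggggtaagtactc
Gas5, chr1:161035126-161035195, plus strand: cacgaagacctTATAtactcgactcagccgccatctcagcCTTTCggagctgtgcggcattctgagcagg
Gas5, upstream start, chr1:161034561-161034630, plus strand: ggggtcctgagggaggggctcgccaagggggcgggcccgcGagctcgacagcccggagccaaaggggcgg
Snhg3, chr4:132353657-132353726, minus strand: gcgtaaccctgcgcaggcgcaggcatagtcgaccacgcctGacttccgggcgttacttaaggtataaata
Snhg5, chr9:88522868-88522937, minus strand: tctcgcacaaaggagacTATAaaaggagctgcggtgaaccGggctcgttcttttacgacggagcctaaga
Snhg12, chr4:132308638-132308707, plus strand: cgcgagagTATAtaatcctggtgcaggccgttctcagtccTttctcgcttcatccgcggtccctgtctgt
Snhg8, chr3:123508307-123508376, minus strand: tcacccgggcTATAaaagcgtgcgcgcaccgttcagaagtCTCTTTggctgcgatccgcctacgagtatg
Snhg7, chr2:26640215-26640284, minus strand: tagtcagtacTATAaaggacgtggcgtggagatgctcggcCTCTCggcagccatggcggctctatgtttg
Snhg11, chr2:158375673-158375742, plus strand: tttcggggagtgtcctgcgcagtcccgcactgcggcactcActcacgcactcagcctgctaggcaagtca

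TATA was found in 6 of these 9 windows (66.7%), against 5.81% of 32851 RefSeq windows searched on the gene's strand. A C followed by 4 or more C or T was found at the start in 3 windows, those of *Gas5* at its downstream start, *Snhg8* and *Snhg7*, against 2.51% of all windows. The same 3 windows had both, against 0.14% of all windows. *Snhg1* began with C and a run of 3 pyrimidines, *Snhg12* with T, *Snhg5* and *Snhg3* with G and *Snhg11* with A. The search depends on the base RefSeq gives as the start, so a start placed a few bases away would not be scored. The levels did not sort by these letters: *Snhg7*, with TATA and a C-led run, was the ninth of the 10 genes by level, and *Snhg3*, scored with neither, was the fourth. The *Snhg3* window does hold the letters tata after its RefSeq start, outside the stretch searched, so its score rests on that start.

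In NSCs, 9 of the 10 host genes were above FPKM 1 in both libraries, against 47.7% of all known genes, and 6 were above 10, against 24.5%. At FPKM 5 the count was also 9, against 35.0%, and all 10 were above 0.1, against 57.8%. FPKM is the number of sequenced fragments per kilobase of transcript, adjusted for how many fragments a library had mapped, and FPKM 1 is a common limit for detection. The median of the host genes was 22.4, against 0.695 over all known genes, and 87.2% of known genes were below it. Known genes that passed FPKM 1 in each library had a median of 10.8, and 73.1% were below the median of the host genes. The host genes were chosen by name, with earlier results of these data known, and no test was made of these differences.

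The spread within the set was wide, with a mean of 55.4 for the highest gene, *Snhg1*, that was 63.8 times the mean of 0.868 for the lowest, *Snhg11*. *Snhg1* had FPKM values of 54.0 and 56.8 in replicates 1 and 2 (55.4 ± 1.94, SD, n = 2 libraries), higher than 95.1% of known genes. *Snhg6*, the host of *Snord87*, followed with 43.3 and 45.0 (44.1 ± 1.21). These were the highest host genes of the set, and the values of the libraries did not overlap between *Snhg1* and *Snhg6*, or between *Snhg6* and the next gene in order.

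A group of 3 genes lay between FPKM 26 and 30 and could not be fully ordered. *Gas5*, whose spliced RNA is also known to bind the glucocorticoid receptor, had 29.3 and 28.2 (28.8 ± 0.744). *Snhg3*, the host of *Snora73a* and *Snora73b*, which take part in the cleavage of pre-ribosomal RNA, had 26.1 and 29.1 (27.6 ± 2.07). *Snhg5*, the host of *Snord50a* and *Snord50b*, had 26.5 and 26.4 (26.4 ± 0.110). The ranges of *Gas5* and *Snhg3* overlapped, as did those of *Snhg3* and *Snhg5*, while *Gas5* was above *Snhg5* in both libraries.

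The remaining 5 genes were lower. *Snhg12*, the host of *Snora16a*, *Snora44*, *Snora61* and *Snord99*, had 16.01 and 20.6 (18.3 ± 3.27), and *Snhg8*, the host of *Snora24*, had 9.86 and 14.7 (12.3 ± 3.42). *Snhg4*, the host of *Snora74a*, had 9.31 and 10.6 (9.95 ± 0.911). The range of *Snhg4* overlapped that of *Snhg8*, and the ranges of *Snhg8* and *Snhg12* did not overlap. *Snhg7*, the host of *Snora17* and *Snora43*, had 5.75 and 5.85 (5.80 ± 0.0685), below all of these in both libraries. *Snhg11*, an RNA that is abundant in neurons of the brain, had 0.753 and 0.983 (0.868 ± 0.163), the only one of the set below FPKM 1 and still above 51.1% of known genes. In bulk RNA a low level in every cell and a higher level in a few cells cannot be told apart. Of the 45 pairs of host genes, 3 had overlapping ranges.

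**Figure D2:**
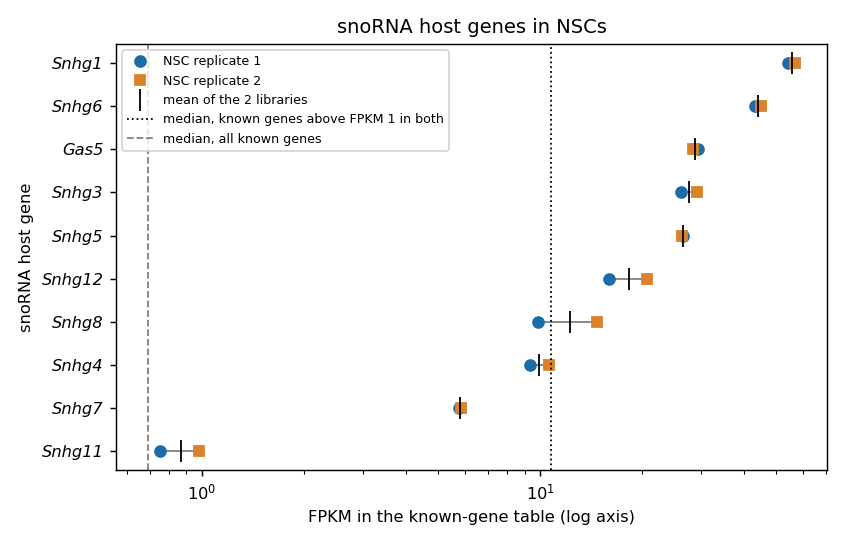
FPKM of the 10 snoRNA host genes on a log x axis, with genes in order of their mean on the y axis, NSC replicate 1 as circles, replicate 2 as squares and the mean as a tick. The dashed line is the median of all known genes (0.695) and the dotted line that of known genes past FPKM 1 in each library (10.8). The genes run between 0.868 for Snhg11 and 55.4 for Snhg1, and the points of the libraries lie farthest apart for Snhg8, Snhg11 and Snhg12.

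The number of snoRNAs a host carries and its level were weakly related across the 10 genes, with Spearman's rho of 0.29 and Pearson's r of 0.38 on log2 FPKM (n = 10 genes). *Snhg6*, with 1 snoRNA, was above *Gas5*, with 9. Against the spliced length of the transcript drawn in the maps, rho was −0.83 over the 9 hosts with a GENCODE transcript. *Snhg6* was the shortest of these at 400 bases, and *Snhg11* the longest at 1329. These are descriptions over genes measured in the same libraries, FPKM itself has length as its divisor, and the transcript that the FPKM refer to may differ from the one drawn.

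Several hosts lie against another gene, and the libraries do not mark strand. *Slc3a2*, the heavy chain of an amino acid transporter, starts 118 bp from *Snhg1* on the opposite strand without overlapping exons, and had FPKM values of 123 and 127. *Rcc1*, the nucleotide exchange factor of Ran, starts 81 bp from *Snhg3* on the same strand and has transcripts whose exons overlap it, with 29.4 and 28.3, close to the 26.1 and 29.1 of *Snhg3*. How reads of the shared exons were divided between *Rcc1* and *Snhg3* was not tested, so the level of *Snhg3* is uncertain by that share. *Snhg4*, carried by GENCODE under a clone name, overlaps exons of *Gm28285*, which had no row in either table. *Mcmdc2* overlaps *Snhg6* on the other strand and *Gm17300* overlaps *Snhg3* on the other strand, and both were listed at 0.1, the lowest value of the tables, in both libraries. *Zbtb37*, a zinc finger gene, starts 248 bp from *Gas5* on the opposite strand with 1.98 and 2.00, and *Snhg7os*, which starts 128 bp from *Snhg7* on the opposite strand, was at 0.1 in both libraries.

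The libraries differed little for 7 of the host genes and more for 3. *Snhg8* had 9.86 in replicate 1 and 14.7 in replicate 2, a ratio of 1.49 (log2 of replicate 1 over replicate 2, −0.58). Of the known genes that passed FPKM 1 in each library, 0.271% differed by more than *Snhg8*, and among 2955 known genes within 1.5-fold of its level 0.135% did. *Snhg12* differed by 1.29-fold (log2 −0.37), exceeded by 1.72% of the known genes above FPKM 1. *Snhg11* differed by 1.31-fold (log2 −0.38), which at its low level was exceeded by 18.9% of 1005 known genes within 1.5-fold of it. A difference of more than 1.2-fold was thus found for 2 of the 9 host genes above FPKM 1, *Snhg8* and *Snhg12*, against 5.48% of all known genes above FPKM 1. In the lncRNA table *Snhg12* differed by 1.19-fold (17.4 and 20.6 in replicates 1 and 2), below that limit, which left *Snhg8*, known from the known-gene table alone.

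The other 7 host genes differed by 1.01-fold (*Snhg5*) to 1.14-fold (*Snhg4*). For scale, the log2 ratio of the libraries had an SD of 0.14 over the known genes above FPKM 1. Replicate 2 had the higher value for 8 of the 10 host genes, and for 56.2% of the known genes above FPKM 1. Scaling both libraries to the same summed FPKM of known genes, a factor of 1.04 on replicate 1, left 6 of the 10 higher in replicate 2, with *Snhg6* and *Snhg7* turned to the other side. Both libraries are of the same condition, and the source of these differences was not tested.

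**Figure D3:**
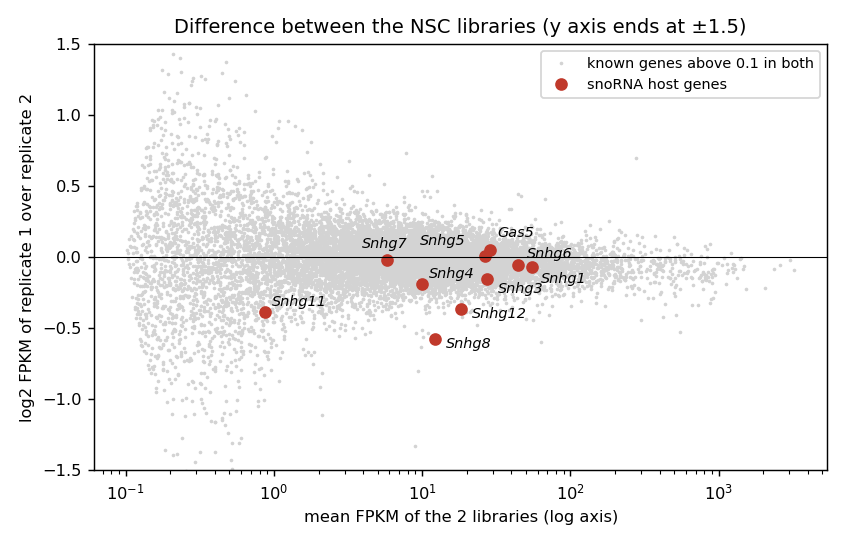
The log2 ratio of FPKM in replicate 1 over replicate 2 (y axis) against the mean FPKM of the libraries (x axis, log), with 13433 known genes above 0.1 in both libraries in grey and the 10 snoRNA host genes in red. The y axis leaves out 27 grey points beyond its ends. Snhg8 at −0.58 and Snhg12 at −0.37 lie at the lower edge of the grey cloud at their levels, while Snhg11 at −0.38 lies where the cloud is broad.

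Among lncRNAs the host genes were near the top. In the table of 8714 lncRNA rows, whose median was at the lowest value of 0.1, *Snhg1* ranked 7, *Snhg6* 12, *Gas5* 19, *Snhg3* 23, *Snhg5* 26, *Snhg12* 37, *Snhg4* 78 and *Snhg7* 100. The 8 host genes made up 0.0918% of the rows and held 3.66% and 3.79% of the summed lncRNA FPKM of replicates 1 and 2. These ranks and shares use the lncRNA-table values. For *Snhg1*, *Snhg7* and *Snhg12* those were higher than the known-gene values (a mean of 59.2 against 55.4 for *Snhg1*), so their ranks would be the same or lower by the known-gene values. In the known-gene table the host genes were 10 of 23257 rows and held 0.0626% and 0.0649% of the summed FPKM.

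The tables come from the same reads, so equal values are no replication, but they were not equal for every host gene. Of the 8 host genes in both, 5 (*Gas5*, *Snhg3*, *Snhg4*, *Snhg5* and *Snhg6*) had the same values to within 1e-05 of the value in both libraries. The other 3, *Snhg1*, *Snhg7* and *Snhg12*, had a higher value in the lncRNA table. Of all 364 symbols with 1 row in each table and a value above 0.1, 6.32% had unequal values and 1.10% a higher value in the lncRNA table. That higher value was seen for 4 symbols, 3 of them these host genes.

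The excess in the lncRNA table equalled the value of a hosted snoRNA. For *Snhg1*, the lncRNA table had 55.6 and 62.9 and the known-gene table had 54.0 and 56.8, and the differences of 1.55 and 6.13 were the FPKM listed for *Snord22* in replicates 1 and 2. For *Snhg7*, the lncRNA table had 6.45 and 7.06 and the known-gene table had 5.75 and 5.85, and the differences of 0.703 and 1.22 were those of *Snora43*. For *Snhg12*, the lncRNA table had 17.4 and 20.6 and the known-gene table had 16.01 and 20.6, and the difference of 1.34 in replicate 1 was the value of *Snora44*. In replicate 2 *Snora44* was listed at 0.1 and the difference was 0.

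Each of these differences, in both libraries, equalled the row of exactly 1 known gene to within 2e-06, with the 0.1 of *Snora44* counted as 0. The fourth symbol with a higher value in the lncRNA table, *2810429I04Rik*, showed the same form with another known gene, *1700024F13Rik*. The sources used here do not say that such rows were added to the host, so this is a match of numbers. Where transcripts of different sources overlapped, the study kept the gene name of 1 source by an order of priority. Whether that bears on these rows was not tested. The lncRNA-table value of *Snhg1* was higher than the known-gene value by 2.87% and 10.8% in replicates 1 and 2, that of *Snhg7* by 12.2% and 20.8%, and that of *Snhg12* by 8.36% in replicate 1. The order of these genes among the host genes was the same with either value. The log2 ratio of replicate 1 over replicate 2 was −0.18 in the lncRNA table for *Snhg1*, against −0.07 in the known-gene table, −0.25 for *Snhg12*, against −0.37, and −0.13 for *Snhg7*, against −0.02.

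**Figure D4:**
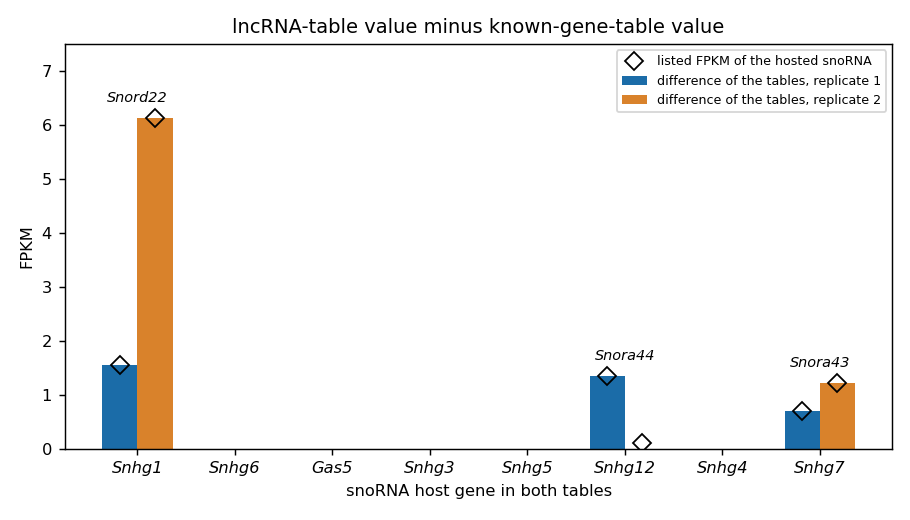
Value in the lncRNA table minus value in the known-gene table (y axis, FPKM) for the 8 host genes found in both (x axis, by level), replicate 1 in blue and replicate 2 in orange, with the listed FPKM of the hosted snoRNA as open diamonds. The bars of Snhg1, Snhg12 and Snhg7 end at the diamonds of Snord22, Snora44 and Snora43, except that Snora44 is listed at 0.1 in replicate 2 with a difference of 0. The other 5 genes have no bar because their values were equal.

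Of the other hosted snoRNA rows only that of *Snora16a* had a value above 0.1, and it showed no such match. For the rows at 0.1 in both libraries nothing can be read about this. Of the 33 hosted snoRNA genes 10 had a row in the known-gene table under the names searched, of which 4 were above 0.1 in at least 1 library and 6 (*Snora74a*, *Snord87*, *Snora17*, *Snora61*, *Snord99* and *Snord47*) were at 0.1 in both. *Snord22* was the only one above FPKM 1 in both libraries. *Snora16a*, another snoRNA of *Snhg12*, had 0.597 and 0.1 in replicates 1 and 2, and its value was not part of the lncRNA-table value of *Snhg12*. Of all 115 snoRNA and scaRNA rows of the known-gene table, 82.6% were at 0.1 in both libraries.

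These RNAs have no poly(A) tail in their mature form, and which reads stand behind their rows was not tested. An exon of at least 1 GENCODE transcript of the host, such as one that keeps the intron, covered 27 of the 33 hosted snoRNA genes. For the 2 in *Snhg7*, which has no GENCODE transcript, this could not be read. Over the 7 hosts with a transcript matched to RefSeq, the only one inside an exon of it was *Snora24* in *Snhg8*, whose drawn transcript is a single exon of 776 bases. Reads of *Snora24* therefore fall within *Snhg8* if the authors' annotation held that transcript, which was not tested.

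The other genes of the pathway were detected nearly throughout. Fibrillarin (*Fbl*), the methyltransferase of box C/D particles, had a mean FPKM of 106 ± 0.205 (SD, n = 2 libraries). *Nhp2l1*, which binds the kink of the C/D boxes, had 106 ± 10.9, *Nop56* 60.2 ± 1.27 and *Nop58* 54.2 ± 2.07, so all 4 core proteins of that class were above FPKM 10 and their median was 83.2. Of the 4 core proteins of box H/ACA particles, *Nop10* had 82.7 ± 10.9, *Nhp2* 75.0 ± 4.52, *Gar1* 30.2 ± 0.678 and *Dkc1*, the pseudouridine synthase, 22.4 ± 1.39, with a median of 52.6. The host genes, with a median of 22.4, were below both lists by that measure.

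The lists of factors that assemble the particles or trim the intron had lower medians. Of 15 assembly factors 14 were above FPKM 1 in both libraries, with a median of 12.1. *Taf9* (96.2 ± 3.80), *Ruvbl2* (48.6 ± 2.31) and *Ruvbl1* (26.8 ± 1.02), of which the last 2 are ATPases of the R2TP complex, were the highest, and *Fbll1*, a relative of fibrillarin, was the lowest at 0.172 ± 0.0298. All 15 genes of debranching and trimming were above FPKM 1, with a median of 14.1. The exosome subunit genes *Exosc8* (28.5 ± 0.336) and *Exosc9* (22.3 ± 1.14) and the 5′ exonuclease gene *Xrn2* (27.9 ± 0.769) led them, and the cytoplasmic exonuclease gene *Xrn1* was the lowest at 4.18 ± 0.0642. *Dbr1*, the debranching enzyme, had 6.91 ± 0.0624.

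All 16 genes of nonsense-mediated decay were above FPKM 1, with a median of 15.9, between *Eif4a3* (70.7 ± 0.581), *Magoh* (65.6 ± 1.08) and the release factor gene *Etf1* (51.1 ± 0.780) at the top and *Upf2* (5.53 ± 0.182) at the bottom. *Upf1*, the helicase of that pathway, had 15.0 ± 1.80. All 13 regulators of TOP mRNAs were above FPKM 1, with a median of 24.3. The cap-binding protein gene *Eif4e* (86.0 ± 3.97), its inhibitor *Eif4ebp1* (81.1 ± 0.265) and *Eif4g1* (73.8 ± 2.49) were the highest of these and *Mlst8*, a subunit of the mTOR complexes, the lowest (7.20 ± 0.576). *Larp1*, which binds the TOP tract, had 21.6 ± 1.58.

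Hosts of other kinds differed widely in level. All 40 protein-coding snoRNA hosts were above FPKM 10, with a median of 527, against 22.4 for the 10 host genes. The translationally controlled tumour protein gene *Tpt1* (1420 ± 6.13) and the ribosomal protein genes *Rps2* (1391 ± 10.7) and *Rpl23a* (1325 ± 96.6) were the highest, and *Rnf149* was the lowest (16.3 ± 0.466). Of 15 other lncRNA hosts, found in the known-gene table by symbol or, for 8, by another RefSeq name, 11 were above FPKM 1 in both libraries and 6 above 10, with a median of 6.36. Where a host had more than 1 row the highest was taken, and the count above 10 depends on this choice. *2410006H16Rik* (160 ± 2.75), *Zfas1* (57.5 ± 7.45) and *1110038B12Rik* (56.5 ± 0.162) were above *Snhg1* in their means, although *Zfas1*, with 62.8 and 52.2 in replicates 1 and 2, and *1110038B12Rik*, with 56.6 and 56.4, overlapped it in range. By the lncRNA-table value of 59.2 *Snhg1* was above the means of both, which were the same in that table. *Rian* was at 0.1 in both libraries.

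**Figure D5:**
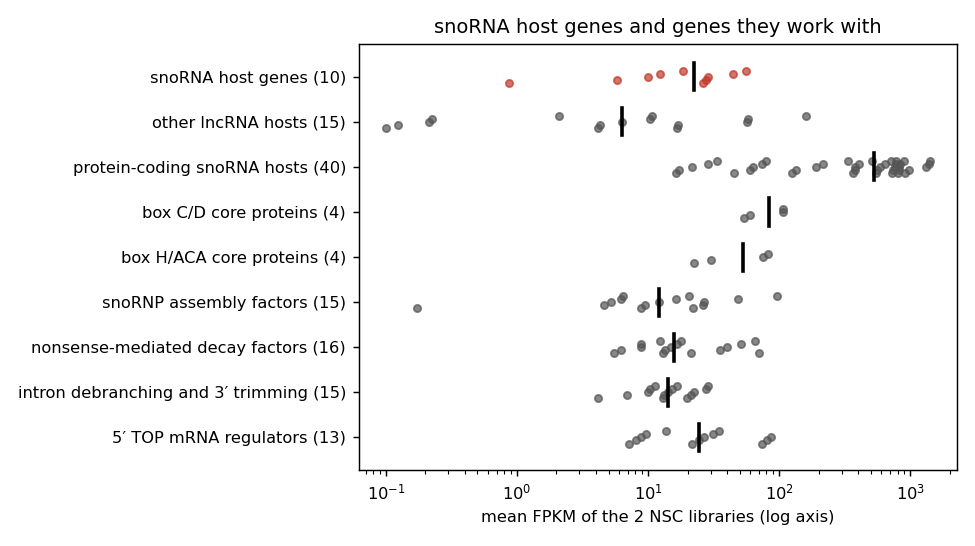
Mean FPKM of the libraries (x axis, log) for the 10 snoRNA host genes in red and for 8 lists of related genes in grey, 1 point for each gene, with the number of genes in parentheses and the median as a vertical bar. The host genes have a median of 22.4, below the core proteins (83.2 and 52.6) and the protein-coding hosts (527) and above the other lncRNA hosts (6.36).

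The label of the cells was checked against markers. All 6 NSC markers were above FPKM 10, from 11.3 ± 0.447 for *Pax6* to 2055 ± 220 for *Fabp7*. All 5 microglia markers were at 0.1 in both libraries, as were 3 of 4 endothelial markers, with *Kdr* at 0.238 and 0.139. Of 5 markers of neurons or their precursors 3 were above FPKM 1, *Tubb3* at 6.37 ± 0.339, *Syn1* at 5.20 ± 0.0887 and *Rbfox3* at 1.10 ± 0.00273. *Stmn2* and *Eomes* were at 0.1, beside the 0.753 and 0.983 of *Snhg11*. The summed FPKM of known genes was 352990 and 367131 in replicates 1 and 2, and read counts were not used here, so the depth behind a value is unknown.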

How the data were processed

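RNA-Seq libraries of 2 NSC replicates were analysed. By the study's methods and the submitters' processing notes, reads were aligned to mm10 with TopHat2 2.0.11 and Bowtie2 2.2.2, and Cufflinks 1.3.0, with corrections for multiply mapped reads and sequence bias, quantified lncRNAs together with UCSC known genes. The authors deposited FPKM per library, without pooling, with no value below 0.1. An entry at 0.1 is thus a limit and not a measurement.

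From the deposited FPKM, means, SDs, counts above FPKM 1 and 10 and log2 ratios of the libraries without a pseudocount were computed with Python 3.11.15, NumPy 2.4.6 and pandas 2.3.3 and drawn with matplotlib 3.10.9. Table values were equal if within 1e-05 of the value, and sums were searched to within 2e-06. Calculations were tested on simulated data. Genes were placed with GENCODE M21 and RefSeq on GRCm38, the assembly of mm10. GENCODE genes of the snoRNA type in the span of a host on its strand were described (33), and those in an intron of a host transcript were counted as intronic (31).

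Named were all 10 host genes, the 3 highest and the lowest gene of each other list, hosted snoRNAs above FPKM 1 in both libraries, and genes with antisense exons or a start within 1 kb. *Dbr1*, *Upf1*, *Larp1*, the other snoRNA rows, same-strand neighbours, *2810429I04Rik* and *1700024F13Rik* were named outside that rule, after values were seen. The host genes and lists were chosen with earlier results of these data known. Single libraries, other thresholds, pseudocounts, scaling and the lncRNA table were tried as alternatives. A further marker list is not reported here.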

Additional observations from a re-analysis of the deposited data

How the results depend on the processing

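With either library alone 9 host genes stayed above FPKM 1, the median ran between 21.1 and 23.5 and the share of known genes below it between 86.5% and 87.7%. Read from the lncRNA table, the median was 27.0, because *Snhg8* and *Snhg11* had no row there: the same 8 genes had a median of 27.0 in the known-gene table too. Against known genes with a mean above 0.1 alone, 78.5% were below the median of the host genes. The lncRNA table gave 59.2 for *Snhg1* and 6.76 for *Snhg7*, and a pseudocount of 1 gave a log2 ratio of −0.18 for *Snhg11*. Without replicate 1, 6 host genes had equal values in both tables in place of 5. Of the hosted snoRNA rows 4 were above 0.1 in at least 1 library, and 2 without replicate 1. The count of hosted snoRNA genes was 31 by introns and 33 by the span of the host, which adds the 2 of *Snhg7*. In an alternative chosen after seeing the data, with lncRNA-table values where listed, 1 host gene above FPKM 1 differed by more than 1.2-fold, *Snhg8*, in place of 2. With the libraries scaled to the same summed FPKM the log2 ratio changed sign for *Snhg6* (0.00083, against −0.06 as deposited) and for *Snhg7* (0.03, against −0.02). Of the other lists, without replicate 2 the median of the box C/D core proteins was 78.9, and at FPKM 5 the other lncRNA hosts found by symbol had 2 genes above the threshold in place of 4, while at FPKM 0.1 the endothelial markers had 1 in place of 0. No paired analysis was possible because there was 1 condition and no second group. The depth of the libraries was not used here, so counting error is not part of any value.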
